A study of Mus musculus with 6 samples.

Results

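The proteasome genes outside the immunoproteasome were examined in RNA from splenic CD8+ T cells. Members were the rows of the deposited table whose mouse symbol starts with Psma, Psmb, Psmc, Psmd, Psme, Psmf or Psmg and a digit, without Psmb8, Psmb9, Psmb10 and pseudogenes. The rule took 46 of the 19323 genes in the table, and 45 of them had a mean of at least 10 normalized counts and were tested. Psma8, a testis form of an alpha subunit, lay below that mean. One of the 46, Psmc3ip, is a recombination factor and not a subunit. The cells came from C57BL/6 WT mice, which started on ND or MCDHFD, as the labels name the diets, at 6 weeks of age and ate it for 7 weeks. The labels describe models of MASH, a liver disease of fat and inflammation. Each diet had 3 libraries. The labels do not say how the cells were isolated or whether a library held 1 animal or a pool, and p-values therefore reflect only how far these samples spread, which may be technical.

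The proteasome degrades proteins that carry ubiquitin chains. Its barrel-shaped core is a stack of alpha rings, which gate the entry, and beta rings, of which Psmb5, Psmb6 and Psmb7 are the catalytic subunits. The cap on the core has a base, whose Psmc ATPases unfold the substrate, and a lid, which removes the ubiquitin. Activators of the Psme family bind the core in place of the cap. Psmb8, Psmb9 and Psmb10 can take the place of the catalytic subunits. Interferon can induce them, and it can also induce Psme1 and Psme2, which together form the activator PA28.

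Library totals ranged from 14119816 to 14752121 normalized counts as deposited. Read totals recovered for 5 libraries were 13188812 to 15482458. The labelled cell type had its markers: all 23 genes of a CD8 T cell list were detected, and all 23 were lower in MCDHFD (median log2 fold change -0.997). Their summed level was 154347 to 154700.0 normalized counts in ND and 75976 to 84889 in MCDHFD. Markers of other cells were present in both diets. A macrophage and monocyte list rose in 19 of 20 genes, from summed levels of 67399 to 80345 to levels of 323141 to 394594, an erythroid list in 15 of 15 (4194 to 4387, then 17795 to 28122) and a neutrophil list in 12 of 14 (1787 to 2588, then 11152 to 18888). Plasma cell markers rose in 5 of 9 tested and fell in 1 (5589 to 5904, then 11047 to 16167). B cell markers fell in 11 of 12 and rose in 1 (19877 to 22332, then 17472 to 20286). The 1 that rose, Ighm, held most of that sum (mean 12576 in ND and 16685 in MCDHFD). Dendritic cell markers fell in 10 of 12 and rose in 2 (57712 to 62015, then 26610 to 27519). Ccr7 (mean 16304 in ND and 10824 in MCDHFD) stands in both this list and the CD8 T cell list. NK cell markers fell in 3 of 4 tested (4589 to 4851, then 2072 to 2218). Those that fell were Prf1, Nkg7 and Eomes. Klrb1c did not pass (mean 28.7 in ND and 31.7 in MCDHFD), and Ncr1, Klra8 and Klra4 were too low to be tested. Of 16 cell cycle genes, 8 rose and 1 fell (8480.3 to 9039, then 9553 to 12288), or 56.25% called. By the same test, given below, 58.4% of all tested genes were called, 30.3% higher and 28.1% lower in MCDHFD. No gene of these lists was at 0 in all ND libraries. The part of this change in cell content in the proteasome results was not tested, and in bulk RNA fewer cells of a type and less RNA per cell cannot be told apart.

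Most proteasome genes differed little between the diets. Of the 45 tested members, 18 passed the test (limma with Benjamini-Hochberg adjustment over all 13430 tested genes, adjusted p under 0.05). That is 40.0% of the members, where 58.4% of all tested genes passed. Among the members 11 were higher in MCDHFD (30.3% of all tested genes were) and 7 were lower (28.1% were). Under quantile scaling the split was 8 higher and 9 lower, and no called member changed direction under any alternative run. The 3 libraries of one diet lay apart from the 3 of the other in 20 of the 45 members, against 65.4% of all tested genes. Only 3 of the 45 both passed and went past 1.5-fold, namely Psmc1, Psme2 and Psme2b, against 33.8% of all tested genes.

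**Figure D1:**
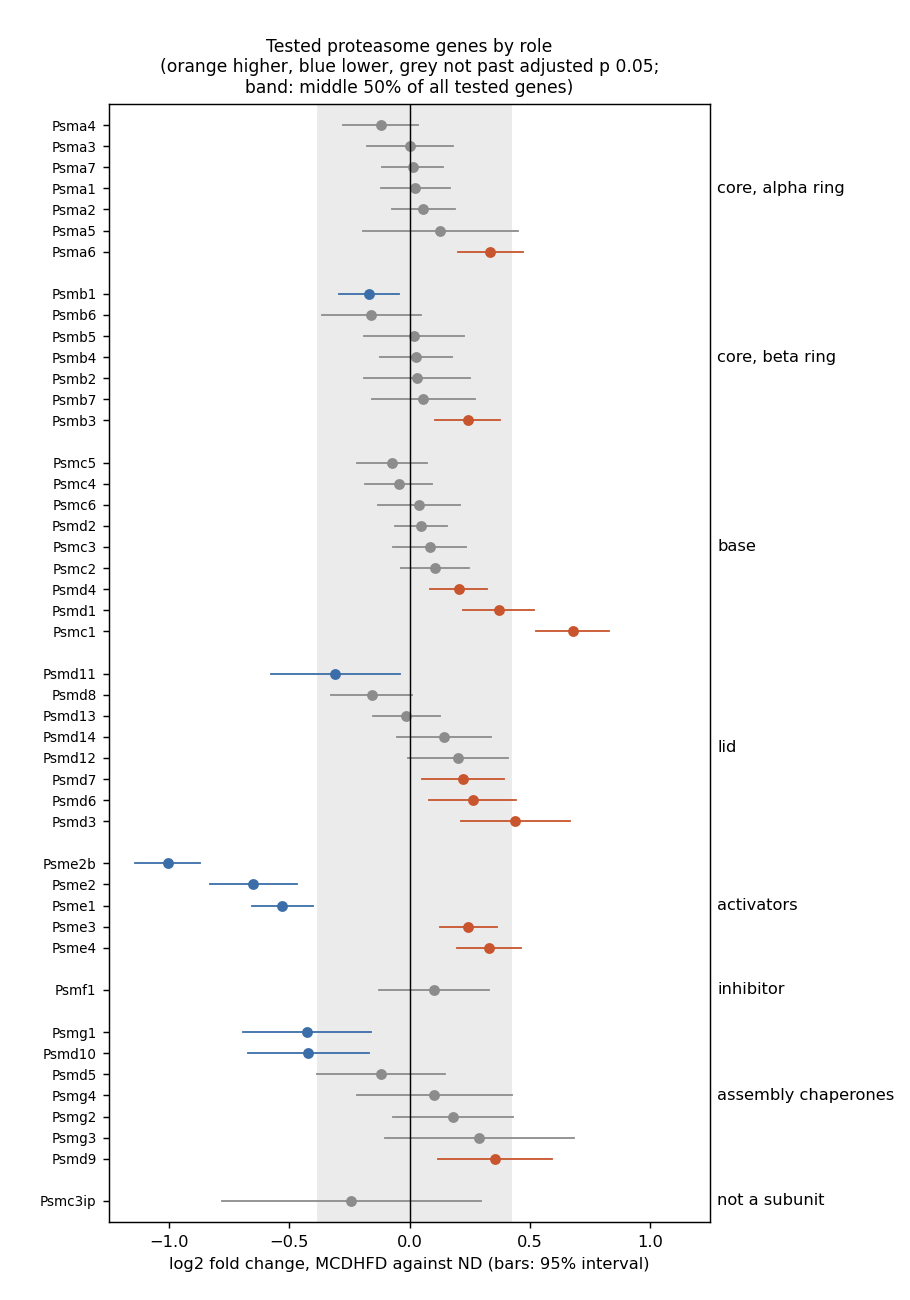
Log2 fold change of MCDHFD against ND for each of the 45 tested members, in order of role, with 95% intervals. The grey band marks the middle 50% of all tested genes, -0.38 to 0.42, and 38 of the 45 members lie in it.

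The median size of the log2 fold change, without its sign, was 0.16 over the 45 members and 0.40 over all tested genes. It was 0.06 over the 14 tested core subunits. A log2 difference under 0.2 in either direction was found for 25 of the 45 members (55.6%), for 12 of the 14 core subunits (85.7%) and for 29.1% of all tested genes. The signed medians were all near 0, at 0.05 for the members, 0.03 for the core subunits and 0.0038 for all tested genes. The set of all tested genes reaches down to a mean of 10 normalized counts and was not matched to the members in level.

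**Figure D2:**
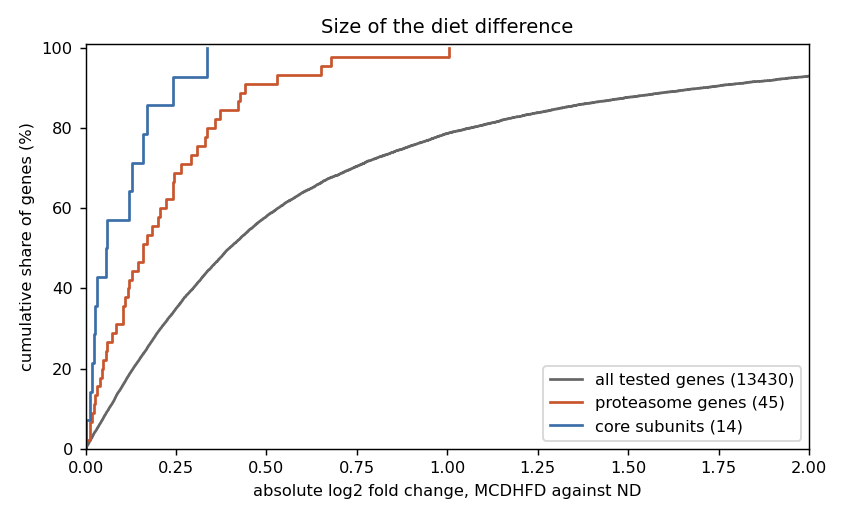
Cumulative share of genes, in percent, up to each absolute log2 fold change, for all 13430 tested genes (grey), the 45 tested members (orange) and the 14 tested core subunits (blue). The curve of the core subunits ends at 0.34, and 29.1% of all tested genes lie under 0.2.

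In the alpha ring, 1 of 7 tested subunits was called (14.3%, against 58.4% of all tested genes), and it was higher. Psma6 was at 921, 957 and 895 normalized counts in ND and at 1120.0, 1183 and 1200.2 in MCDHFD (log2 fold change 0.34, SE 0.06, limma adjusted p = 0.00113). Every MCDHFD library lay above every ND library. Psma4, which had the lowest log2 fold change of the tested alpha subunits, was at 1033, 925 and 901 in ND and 853, 883 and 890.4 in MCDHFD. Its groups did not overlap, but the difference did not pass (log2 fold change -0.12, 95% interval -0.28 to 0.04, limma adjusted p = 0.164). Psma1, Psma2, Psma3, Psma5 and Psma7 lay between 0.002 and 0.13 on the log2 fold change scale, with overlapping groups. Of these, Psma7 had the narrowest interval, from a change of -7.52% to one of 10.03%, and Psma5 the widest, from -12.6% to 36.7%. Psma5 shares 98.6% of 952 aligned bases with a processed pseudogene that the table lists at means of 186 and 225 in ND and MCDHFD, so its level is uncertain. Psma8 was at 3.92, 1.95 and 4.95 normalized counts in ND and at 10.4, 5.90 and 6.71 in MCDHFD, and it was not tested.

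In the beta ring, 1 of 7 tested subunits was higher and 1 lower (28.6% called, against 58.4% of all tested genes). Psmb3, a structural subunit, was at 859, 874 and 877 normalized counts in ND and at 984, 1078 and 1026 in MCDHFD (log2 fold change 0.24, SE 0.06, limma adjusted p = 0.00703). Psmb1, also structural, was at 2059.7, 1969 and 1937 in ND and at 1729, 1721 and 1859 in MCDHFD (log2 fold change -0.17, SE 0.06, limma adjusted p = 0.0279). Both groups lay apart in both genes. The call of Psmb1 ended without ND replicate 1 (limma adjusted p = 0.0833) or 2 (0.062) and without MCDHFD replicate 1 (0.0614) or 2 (0.0818), with its direction kept.

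None of the catalytic beta subunits passed. Psmb5, which cuts after hydrophobic residues, was at 572, 503 and 516 normalized counts in ND and 496, 598 and 519 in MCDHFD (log2 fold change 0.02, 95% interval -0.19 to 0.23, limma adjusted p = 0.881). Psmb6, which cuts after acidic residues, was at 822, 1000.0 and 903 in ND and 739.8, 844 and 855 in MCDHFD (log2 fold change -0.16, interval -0.36 to 0.05, limma adjusted p = 0.161). Psmb7, which cuts after basic residues, was at 637, 635 and 576 in ND and 562, 695 and 673 in MCDHFD (log2 fold change 0.06, interval -0.16 to 0.27, limma adjusted p = 0.624). The diets overlapped in each of these genes. The intervals leave room for changes of -12.4% to 17.01% in Psmb5, -22.2% to 3.24% in Psmb6 and -10.2% to 20.7% in Psmb7. Psmb2 and Psmb4, the remaining structural subunits, had log2 fold changes of 0.03 and 0.03 and overlapping groups.

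The interferon-inducible partners of the catalytic subunits all fell. In normalized counts, as mean ± SD over 3 libraries, Psmb8 went from 3027 ± 144 to 1901 ± 83.3, Psmb9 from 1389 ± 72.4 to 712 ± 67.4 and Psmb10 from 1423 ± 104 to 752 ± 22.4. The ratio of a constitutive subunit to its partner does not depend on library scaling, and, since it is not corrected for transcript length, only its change is read here. Exon bases shared with a gene on the other strand made up 11.8% for Psmb7 (Nek6), 14.7% for Psmb8 (Gm20496) and 5.79% for Psmb9 (Tap1). Psmb5 shares 12.1% with Mir686 on its own strand. With the strand setting not stated, the ratios may hold reads of these genes. The ratio of Psmb5 to Psmb8 was 0.181, 0.165 and 0.180 in the ND libraries and 0.275, 0.304 and 0.270 in the MCDHFD libraries. That of Psmb6 to Psmb9 was 0.627, 0.716 and 0.620 in ND and 0.945, 1.196 and 1.32 in MCDHFD. That of Psmb7 to Psmb10 was 0.418, 0.446 and 0.438 in ND and 0.723, 0.937 and 0.915 in MCDHFD. All 3 ratios were higher in every MCDHFD library than in any ND library, by 0.69, 0.81 and 0.97 on the log2 scale. A two-sided exact permutation test gave p = 0.1 for each of the 3 pairs (0.1 after adjustment), the smallest that 3 against 3 libraries allow.

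**Figure D3:**
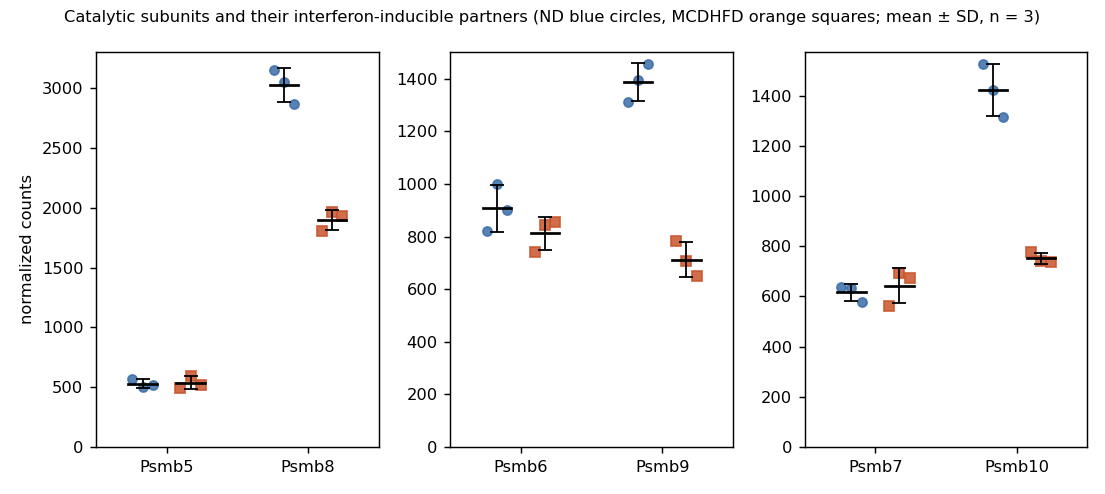
Normalized counts of each catalytic subunit (left in each panel) and its interferon-inducible partner (right) in every library, with mean ± SD for 3 libraries per diet. The diets overlap for Psmb5, Psmb6 and Psmb7 and lie apart for Psmb8, Psmb9 and Psmb10.

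In the base, 3 of 9 subunits (33.3%) were higher in MCDHFD and none was lower. Of all tested genes, 30.3% were higher and 28.1% lower, so the share of higher base subunits was near that of all genes. Psmc1, an ATPase of the ring, had the highest log2 fold change of all 45 tested members. It was at 1084, 1024 and 973 normalized counts in ND and at 1544, 1732 and 1659 in MCDHFD (log2 fold change 0.68, SE 0.07, limma adjusted p = 3.51e-05), with all MCDHFD libraries above all ND libraries. The gene (ENSMUSG00000021178) is protein-coding and lies on chromosome 12, 100110154 to 100123405, plus strand, in mm10. The other 5 ATPases of the same ring, Psmc2 to Psmc6, did not pass. Their log2 fold changes ran from -0.07 (Psmc5) to 0.11 (Psmc2), and their groups overlapped. Psmc5 was at 846, 867 and 867 normalized counts in ND and 824, 862 and 769.6 in MCDHFD. The highest upper bound of their 95% intervals was a rise of 18.8% (Psmc2), whereas that of Psmc1 began at a rise of 44.1%.

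The other called base subunits were Psmd1 and Psmd4. Psmd1, a large scaffold subunit, was at 1176, 1181 and 1203 normalized counts in ND and 1438, 1513 and 1659.9 in MCDHFD (log2 fold change 0.37, SE 0.06, limma adjusted p = 0.00108). Psmd4, a ubiquitin receptor, was at 1433, 1455 and 1411 in ND and 1657, 1704 and 1596 in MCDHFD (log2 fold change 0.20, SE 0.05, limma adjusted p = 0.00853). No library of one diet overlapped the other in either gene, and the Psmd4 call ended under quantile scaling (log2 fold change 0.12, limma adjusted p = 0.0722). Psmd2, the other large scaffold subunit, went from 1930.2 ± 9.71 to 1995 ± 30.3 (mean ± SD, n = 3). Its diets lay apart too, but the difference of 0.05 on the log2 scale did not pass (95% interval -0.06 to 0.15, limma adjusted p = 0.416).

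In the lid, 3 of 8 subunits were higher and 1 was lower. Psmd3 was at 1697, 1526 and 1665 normalized counts in ND and at 1867, 2409.9 and 2396 in MCDHFD (log2 fold change 0.44, SE 0.10, limma adjusted p = 0.00473). MCDHFD replicate 1 was the lowest of its diet but above all ND libraries. Psmd11 was at 839, 758 and 753 in ND and at 635, 748 and 530.2 in MCDHFD (log2 fold change -0.31, SE 0.12, limma adjusted p = 0.0498). The values of its diets come within a few counts of each other, in ND replicate 3 and MCDHFD replicate 2. Its call ended under 10 of 17 alternatives, among them all libraries left out but MCDHFD replicate 2, with adjusted p between 0.0786 and 0.149. Psmd11 also shares 97.9% of 1501 aligned bases with the noncoding transcript A730017L22Rik, which the table lists at means of 208 and 129.

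The smaller lid calls were Psmd6 (log2 fold change 0.26, limma adjusted p = 0.0195) and Psmd7 (0.22, limma adjusted p = 0.0299). Psmd6 rose from 886 ± 39.4 to 1065 ± 104 normalized counts and Psmd7 from 806 ± 64.6 to 939 ± 38.1 (mean ± SD, n = 3). Without ND replicate 2 (limma adjusted p = 0.0674) or 3 (0.0519), or MCDHFD replicate 2 (0.0591), the call of Psmd6 ended. That of Psmd7 ended without ND replicate 3 (limma adjusted p = 0.103) and without MCDHFD replicate 2 (0.0874) or 3 (0.0781). Both calls also ended under quantile scaling and in edgeR and DESeq2 on 5 libraries, which leave out ND replicate 3 as well. Psmd14, the deubiquitinase of the lid, did not pass (log2 fold change 0.14, limma adjusted p = 0.182), nor did Psmd8 (-0.16, 0.0969), Psmd12 (0.20, 0.0872) or Psmd13 (-0.01, 0.868). In each of these 4 genes the diets overlapped.

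All 5 activator genes passed, where 58.4% of all tested genes did, with 3 lower and 2 higher. Psme2 and Psme2b are near-copies, and with them summed 2 were lower. The genes of the PA28 activator fell. Psme1, its alpha subunit, was at 2600.1, 2412 and 2380.4 normalized counts in ND and at 1713, 1659 and 1748 in MCDHFD (log2 fold change -0.53, SE 0.06, limma adjusted p = 5.14e-05). Psme2, its beta subunit, was at 499, 472 and 445 in ND and at 296, 312 and 294 in MCDHFD (log2 fold change -0.65, SE 0.08, limma adjusted p = 0.000141). Psme2b was at 1852, 1828 and 1701 in ND and at 857, 916 and 905 in MCDHFD, the lowest log2 fold change of all tested members (-1.01, SE 0.06, limma adjusted p = 1.62e-06). In all 3 genes each MCDHFD library lay below each ND library.

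Psme2b is a near-copy of Psme2, with 99.4% identity over 794 aligned bases, so the split of reads between the 2 genes is uncertain. Summed, they were at 2351, 2299.7 and 2147 normalized counts in ND and at 1153, 1228 and 1199 in MCDHFD (log2 fold change -0.92, limma adjusted p = 2.15e-06, an alternative added after seeing the data). Psme1 (ENSMUSG00000022216) lies on chromosome 14, 55578123 to 55581529, plus strand, and Psme2 (ENSMUSG00000079197) on chromosome 14, 55587441 to 55591113, minus strand. Psme2b (ENSMUSG00000078153) lies on chromosome 11, 48945354 to 48946190, minus strand. The 3 are annotated as protein-coding in mm10.

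The activators of the other kinds rose. Psme3, the nuclear gamma activator, was at 2860.5, 2681 and 2719 normalized counts in ND and at 3375, 3252 and 3161 in MCDHFD (log2 fold change 0.24, SE 0.05, limma adjusted p = 0.00329). Psme4, a large nuclear activator linked to histone degradation, was at 1361, 1380.4 and 1271 in ND and at 1728, 1608 and 1710.2 in MCDHFD (log2 fold change 0.33, SE 0.06, limma adjusted p = 0.0012). The diets lay apart in both genes. All 5 activator calls held under every alternative in which the gene was tested on its own or, for Psme2, with its copy; Psme2b had no value of its own where the copies were summed.

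**Figure D4:**
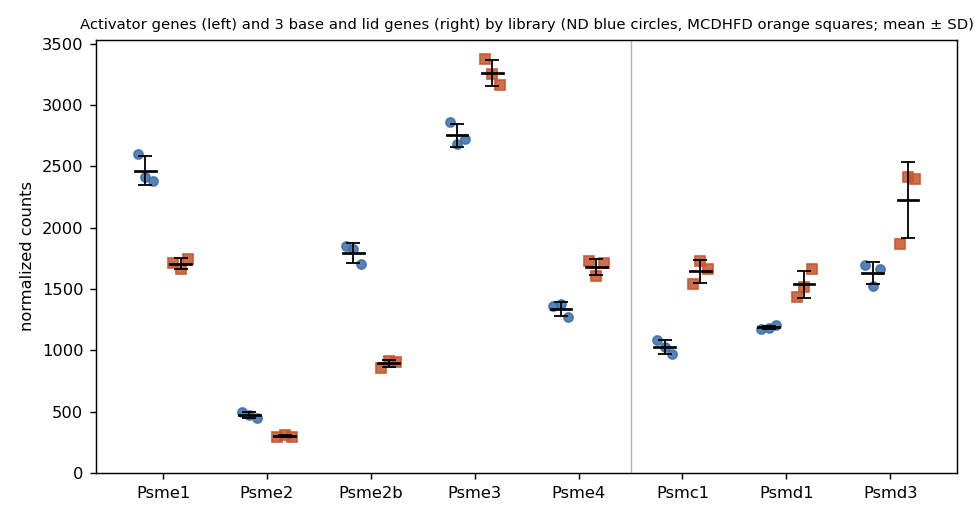
Normalized counts in every library for the 5 activator genes (left of the line) and for Psmc1, Psmd1 and Psmd3 of the base and lid (right), with mean ± SD for 3 libraries per diet. Psme1, Psme2 and Psme2b are lower in all MCDHFD libraries, and the other genes are higher in all of them.

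Psmf1, which encodes an inhibitor of the core, was at 596, 607 and 596 normalized counts in ND and 736, 553 and 655 in MCDHFD. Its MCDHFD values lay on both sides of the ND values (log2 fold change 0.10, 95% interval -0.13 to 0.33, limma adjusted p = 0.41). Among the 7 assembly chaperones, 1 was higher and 2 were lower (42.9% called, against 58.4% of all tested genes). Psmd9, a chaperone of the base, was at 274, 333 and 337 in ND and 381, 391 and 433 in MCDHFD (log2 fold change 0.36, SE 0.10, limma adjusted p = 0.0168). Psmd10, also of the base and known as gankyrin, was at 225, 253 and 249 in ND and 176, 167 and 200.2 in MCDHFD (log2 fold change -0.42, SE 0.11, limma adjusted p = 0.00984). Psmg1, which helps to build the alpha ring, was at 189, 206 and 174 in ND and 132, 141 and 149.9 in MCDHFD (log2 fold change -0.43, SE 0.12, limma adjusted p = 0.0121).

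The diets lay apart in these 3 chaperone genes. The call of Psmd9 ended without MCDHFD replicate 3 (limma adjusted p = 0.0629), that of Psmg1 without ND replicate 2 (0.0543) and that of Psmd10 in DESeq2 on 5 libraries (0.0502). Of the exon bases of Psmd9, 25.5% also belong to the antisense gene Gm26745. Without a stated strand setting, reads of overlapping genes cannot be told apart. Psmg2, the partner of Psmg1, did not pass (log2 fold change 0.18, limma adjusted p = 0.186), and neither did Psmg3 (0.29, 0.181), Psmg4 (0.10, 0.559) or Psmd5 (-0.12, 0.414). Psmc3ip was at 41.1, 43.8 and 49.5 normalized counts in ND and at 48.9, 37.3 and 29.1 in MCDHFD and did not pass either (limma adjusted p = 0.409).

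Summed over the subunits of a role, the core was nearly level. It held 13991 ± 108 normalized counts in ND and 14209 ± 483 in MCDHFD (mean ± SD, n = 3), a ratio of 1.02, with overlapping diets. The base sum rose above every ND library in every MCDHFD library, from 10630.3, 10540.3 and 10319 to 11423, 12099 and 11991, a ratio of 1.13. The lid sum overlapped, at 8260.3, 7957 and 7922 in ND and 8031, 9395 and 9080.3 in MCDHFD. The sum of Psme1, Psme2 and Psme2b was at 4951, 4711 and 4527 in ND and 2866, 2887 and 2947 in MCDHFD, a ratio of 0.613, beside 0.576 for Psmb8, Psmb9 and Psmb10 together. All 46 members held 0.308% of the normalized counts in ND and 0.309% in MCDHFD. These sums were not tested.

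**Figure D5:**
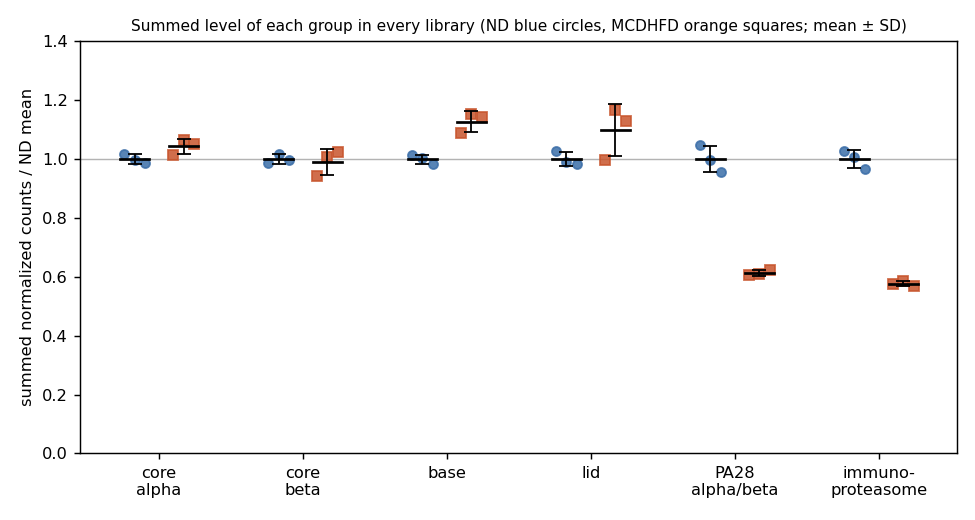
Summed normalized counts of each group in every library, divided by the mean of the 3 ND libraries, with mean ± SD for 3 libraries per diet. Core sums lie near 1 in both diets, base sums are higher in all MCDHFD libraries, and the sums of the PA28 and the immunoproteasome genes lie at means of 0.613 and 0.576 in MCDHFD.

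Levels between members were compared per kilobase of the longest basic coding transcript. In ND the 7 tested alpha subunits ran from 201 (Psma5, whose level is uncertain) to 1264 (Psma7) normalized counts per kilobase, with the untested Psma8 at 2.13, and the beta subunits from 531 (Psmb7) to 1357 (Psmb4). The base subunits lay closer together, from 381 (Psmd1) to 816 (Psmd4), and the lid subunits ran from 275 (Psmd11) to 798 (Psmd8). The assembly chaperones were lower, from 86.6 (Psmd5) to 454 (Psmg4). Psmc1, in the middle of its ring in ND at 646 ± 34.8 per kilobase, was the highest ATPase in MCDHFD at 1034 ± 59.6 (mean ± SD, n = 3). Psme1 was at 2216 ± 107 per kilobase in ND and 1535 ± 40.4 in MCDHFD. Psme2b, at 2143 ± 96.7 in ND, lay within that spread, and its level rests on an uncertain split of reads with Psme2. These levels depend on the transcript chosen for the length.

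Genes that work with the proteasome but are not members were called at about the rate of all genes: 33 of 34 such genes were tested, with 12 higher and 6 lower (54.5% called, against 58.4%). Of the alternatives, only the scalings, the replicate block and each library left out were run for these genes. Under quantile scaling 8 were higher and 8 lower, and 8 were higher without ND replicate 2 or 3 or MCDHFD replicate 2, with 6, 6 and 7 lower. The 4 measured genes of other subunits and assembly factors did not pass. They were the ubiquitin receptor Adrm1 (log2 fold change -0.04), the lid subunit Sem1 (0.09), the core maturation factor Pomp (-0.21, limma adjusted p = 0.0524) and the nuclear import adaptor Akirin2 (0.16, limma adjusted p = 0.0575). Pomp passed under 5 of the alternatives run for it, each time lower in MCDHFD. Of 8 genes of proteins that bind the proteasome, 5 rose and 1 fell. The rises of the deubiquitinase Uchl5 and the ligase Ube3a were less stable. That of Uchl5 (log2 fold change 0.32, limma adjusted p = 0.0327) ended under quantile scaling and without any 1 library but ND replicate 1 (adjusted p 0.0602 to 0.113). Zfand5, an activator that docks on the cap, went from 966 ± 16.1 to 2005 ± 156 normalized counts (log2 fold change 1.05, limma adjusted p = 2.36e-06), with no overlap between the diets. The deubiquitinase Usp14 (0.41) and the ubiquitin ligase Ube3a (0.42) rose as well, and the call of Ube3a ended without ND replicate 2 (limma adjusted p = 0.0772) or 3 (0.0625), without MCDHFD replicate 1 (0.0897) or 2 (0.0508) and under quantile scaling.

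Among the ubiquitin shuttle genes, Ddi2, also the protease that activates Nfe2l1, rose (log2 fold change 0.45, limma adjusted p = 0.00018), and Ubqln4 fell (-0.46, limma adjusted p = 0.0003). Of the 5 tested genes that govern proteasome transcription, 3 rose (Ddi2, Nfe2l2 and Vcp) and none fell. That is 60.0%, near the 58.4% of all tested genes, and the call of Vcp ended under alternatives given with it. Nfe2l1, the factor that raises proteasome genes when degradation falls short, was at 652, 1689.8 and 1459.9 normalized counts in ND and 1586, 553 and 921 in MCDHFD. Its values varied widely within each diet and overlapped, and the gene did not pass (log2 fold change -0.33, limma adjusted p = 0.524). Its relative Nfe2l2, the oxidative stress factor, rose from 787 ± 32.7 to 1148 ± 28.1 (log2 fold change 0.54, limma adjusted p = 6.6e-05).

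Of the Vcp unfoldase and its 5 measured cofactors, 2 rose and 1 fell. The share called in this group was below the 58.4% of all tested genes. Vcp itself had a log2 fold change of 0.17 (limma adjusted p = 0.0182), Nploc4 of 0.24 (0.019) and Nsfl1c of -0.38 (0.0077). The Vcp call ended under quantile scaling and without ND replicate 2 (limma adjusted p = 0.0574) or MCDHFD replicate 2 (0.0623), and the Nploc4 call under quantile scaling and without ND replicate 2 (0.0703) or 3 (0.0558) or MCDHFD replicate 2 (0.0627). The ubiquitin activating enzyme genes Uba6 (log2 fold change -0.37, limma adjusted p = 0.00435) and Uba1 (-0.35, limma adjusted p = 0.000547) fell.

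A search of the promoter sequences for binding letters of factors that act on proteasome genes was planned. RefSeq sequences on GRCm38.p6, from 250 bases before to 50 after the start, were found for 38 of the 46 members, in 41 promoters. The letters TGACNNNGC, known for NRF-type factors such as Nfe2l1, were searched on both strands and stood in 6 of the 41 (14.6%). Of all 32851 RefSeq promoters searched, not only those of genes measured here, 12.4% held them. The letters CCAAT, known for NF-Y, stood in 13 of the 41 (31.7%), against 37.4% of all. By call, TGACNNNGC stood in 2 of 10 promoters of members that rose, 0 of 7 of those that fell and 4 of 24 of the others, and CCAAT in 5 of 10, 1 of 7 and 7 of 24. These shares were not tested. The letters GAAA, any 2 bases and GAAA of an interferon response element, added after the values were seen, stood in 5 of the 41 (12.2%), against 3.44% of all. One of these 5 was Psme1, where TTTCGCTTTC begins at 9 bases after the start. No match to them was found in the listed promoters of Psme2 or Psme2b, and Psmb3, Psmd4 and Psmd9, which rose, each held 1. A match describes letters only.

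The 250 bases before the start are shown for 2 catalytic subunits that did not pass and for the members of the beta ring and of the base with the highest log2 fold change, with the matches in capitals. They are read on the strand of the gene at chr14:54617996-54618245 (minus) for Psmb5, chr11:70525107-70525356 (plus) for Psmb6, chr11:97703184-97703433 (plus) for Psmb3 and chr12:100109952-100110201 (plus) for Psmc1. Psmb5 and Psmb6 each hold 1 TGACNNNGC match, Psmb3 holds CCAAT and the interferon response letters on the other strand, and Psmc1 holds CCAAT.
Psmb5: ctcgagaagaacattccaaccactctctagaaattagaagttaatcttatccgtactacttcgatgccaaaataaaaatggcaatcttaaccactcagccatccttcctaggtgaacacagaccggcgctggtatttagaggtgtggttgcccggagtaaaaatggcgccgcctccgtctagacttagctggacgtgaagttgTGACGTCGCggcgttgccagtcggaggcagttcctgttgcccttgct
Psmb6: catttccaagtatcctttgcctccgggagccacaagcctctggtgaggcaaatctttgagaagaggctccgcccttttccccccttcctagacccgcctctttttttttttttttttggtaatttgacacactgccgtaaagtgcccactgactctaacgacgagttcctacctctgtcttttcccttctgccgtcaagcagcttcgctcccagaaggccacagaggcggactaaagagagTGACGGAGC
Psmb3: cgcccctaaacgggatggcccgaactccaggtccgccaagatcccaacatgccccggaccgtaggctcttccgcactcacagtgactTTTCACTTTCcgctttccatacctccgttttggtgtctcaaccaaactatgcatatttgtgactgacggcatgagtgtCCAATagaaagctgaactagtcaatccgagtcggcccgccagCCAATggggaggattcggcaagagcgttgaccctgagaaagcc
Psmc1: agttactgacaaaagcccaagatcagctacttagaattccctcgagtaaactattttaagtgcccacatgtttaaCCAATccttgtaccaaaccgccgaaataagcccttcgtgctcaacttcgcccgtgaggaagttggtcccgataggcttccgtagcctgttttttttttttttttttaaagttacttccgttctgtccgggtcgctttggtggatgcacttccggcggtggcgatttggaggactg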

How the data were processed

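RNA-seq of 6 libraries was used. The authors deposited normalized counts per Ensembl gene, a signal made by dividing counts by 1 factor per library; the genome was mm10 per the submitters' processing notes, and the aligner, the counter and its strand setting were not given in the sources used. Symbols matched 19202 of 19323 genes. The members and lists were chosen with earlier results of these data known. The test was limma 3.58.1 (R 4.3.3, trend) on log2(value + 1), for genes with a mean of at least 10, with Benjamini-Hochberg adjustment at 0.05. Fold changes on this scale understate those of low genes. Whole reads were recovered for 5 libraries (tolerance 0.01) and tested with edgeR 4.0.16 and DESeq2 1.42.0, ND replicate 3 being left out there. Named were all members, by role, and pathway genes of fixed lists, some of which are not reported here. Alternatives were pseudocounts, filters, scalings, library weights, a replicate block, each library left out and, added after seeing the data, summed near-copies. For the pathway genes only the scalings, the block and each library left out were run. The statistics were tested on simulated data. Fixed lists of markers of CD8 T cells, other cell types and the cell cycle described the samples.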

Additional observations from a re-analysis of the deposited data

How the results depend on the processing

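Of the 18 called members, 10 were called in every alternative run, 8 lost the call in at least 1 and 5 others gained it in at least 1. No called member reversed. The members called lower numbered 7, and 4 to 7 with 1 library left out. The beta ring had 1 lower, and 0 to 1 with 1 library left out, and the alpha ring had 0 lower but 1 under quantile scaling. The lid had 3 higher, 1 under quantile scaling, edgeR and DESeq2, and 1 to 5 with 1 library left out. It had 1 lower, 0 with a pseudocount of 0.1, no filter, a filter at 100, edgeR and DESeq2, 2 under quantile scaling, and 0 to 1 with 1 library left out. The chaperones had 2 lower, 1 in DESeq2 and 1 to 2 with 1 library left out. On the recovered reads of 5 libraries (100% of values whole), edgeR called 7136 genes and DESeq2 6715, against 7837 in limma on all 6 libraries. Among them were 9 members higher and 6 lower in edgeR and 9 higher and 5 lower in DESeq2. Limma without ND replicate 3, thus on the same 5 libraries, called 7116 genes, with 9 members higher and 6 lower. In that run the lid had 1 higher and 0 lower, as in edgeR and DESeq2. Some alternatives used fewer libraries; the cause of these moves was not tested. With the replicate number as a block 11 members were higher and 7 lower, as without it, and of the genes named only Pomp changed its call (limma adjusted p = 0.0415). Same-numbered samples deviated together only weakly (correlations 0.0365, 0.0621 and 0.00572), and ND replicate 3 correlated best with MCDHFD replicate 1 (0.0197), so the numbers were not taken as a pairing. Psma8 lay under the filter and was not tested.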
